A study of Rattus norvegicus with 5 samples.

Results

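Cardiac muscle genes were followed across 3 metastatic lung nodules and 2 primary tumours of a rat glioma grown in mice. The 10 genes Myh6, Myh7, Myl7, Myl4, Myl3, Tnni3, Sln, Smpx, Ankrd1 and Nppb were found through the RefSeq accession of each array probe, and each had 1 probe among the 15436 named genes of the array. They were chosen by their measured levels on these same arrays, where lung nodule 3 had been seen to stand apart, so those levels are a description and carry no test. The cells were C6-L, a line derived from the rat C6 glioma, carried as xenografts by BALB/c nu/nu nude mice, which lack a thymus and are listed as 6 weeks of age. Lung nodules 1, 2 and 3 (n = 3) and the irradiated primary tumour (n = 1) date from 6 weeks after γ-irradiation. A primary tumour without irradiation (n = 1) dates from 6 weeks after the glioma cells were grafted. Whether different mice supplied the nodules is not stated, and healthy lung, heart and skeletal muscle were not analysed here.

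Heart and skeletal muscle contract with the same kind of sarcomere but build it from different members of shared gene families. A myosin motor joins heavy chains (Myh genes) with essential and regulatory light chains (Myl genes). Atrial muscle uses the light chains Myl4 and Myl7, whereas the ventricle uses Myl3 and Myl2, which slow skeletal fibres share. In adult rodents Myh6 is the main heavy chain of both heart chambers, and Myh7 is the heavy chain of slow skeletal fibres and of the fetal and stressed ventricle. Rodent lungs carry heart muscle of their own, since a sleeve of atrial-type muscle extends from the left atrium along the pulmonary veins.

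Levels are log2 signals relative to the 75th percentile of the same array, so a probe at that percentile has a level of 0. Between 69.8 and 73.5% of an array's gene spots passed background and 0 reached saturation. The number of arrays limits the precision, since nodule 3 and each primary are 1 array. Between spots of 1 probe on 1 array the member signals that were well above background had SDs of 0.016 to 0.41 on the log2 scale, with a median of 0.099. Nodules 1 and 2 differed by 0.011 to 1.53 in the members, and over 18284 features bright in both by a median of 0.18, with 95% of features within 0.96. The probes were designed on rat genes and the hosts were mice, so rat tumour RNA and mouse host RNA cannot be told apart, and fewer muscle cells cannot be told apart from less RNA per cell. Among glial markers Vim stood at 5.04 to 6.23 on the 5 arrays, while Gfap and Olig2 were not well above background on any of them. All arrays lay on 1 slide, and the sample and the slide position of nodule 3 cannot be told apart.

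Nodule 3 stood at least 1 log2 unit (2-fold) above both other nodules in 8 of the 10 genes. Over all features that were well above background in nodule 3, 0.746% (139 of 18628) did so. The choice of the genes fixed this contrast, so nothing is read from the comparison with that share. Neither nodule 1 nor nodule 2 stood that far above the other nodules in any of the 10 genes, where 3.18% and 0.534% of all features did. The exceptions were Myl3 and Nppb. Set against nodule 2 alone (without nodule 1) the count was 8, and against nodule 1 alone it was 10. The size of these differences depended on the background correction: with normexp, which adds an offset to low signals, the fold over the mean of nodules 1 and 2 moved by more than 1.5 times in 7 of the 10 genes. It was 86.3 for Myl7, 45.0 for Myh7, 17.2 for Tnni3 and 3.41 for Ankrd1, where the values given below are 164, 71.3, 37.8 and 6.51. Against the primaries the 8 genes parted. Nodule 3 exceeded both primaries by at least 1 log2 unit in Myl7, Myl4, Myh6, Tnni3 and Myh7, 5 of the 10 genes (all features, 2.39%), and lay below the irradiated primary in Sln, Smpx and Ankrd1. Set against the non-irradiated primary alone, the count was 8 of the 10 genes, but not the same 8. Nppb (1.16 above it) was among them and Smpx (0.60 above it) was not.

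**Figure D1:**
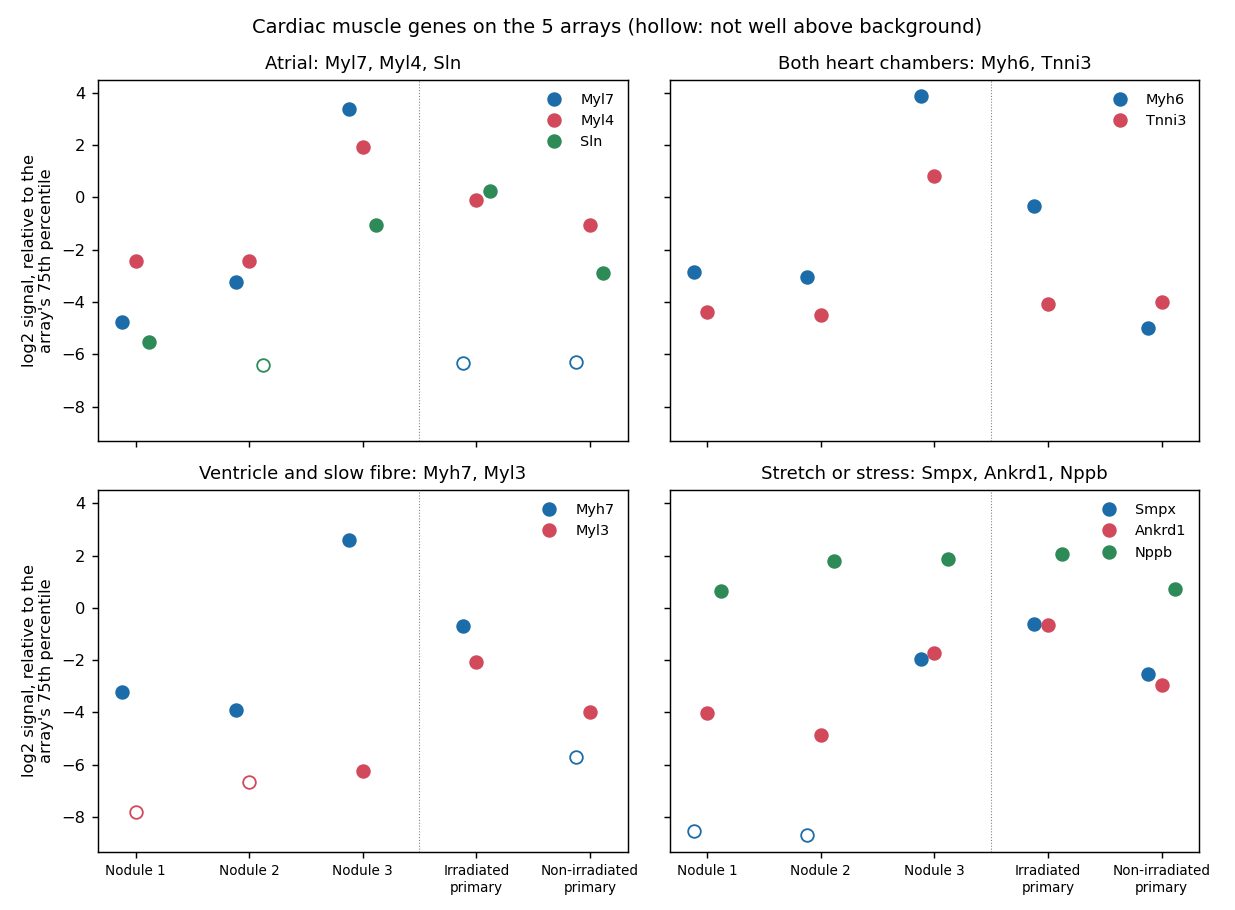
Scaled log2 signal (y axis) of the 10 cardiac muscle genes on the 5 arrays (x axis), in panels by the known role of the gene; each point is 1 array, and hollow points were not well above background. Nodule 3 is the highest array for Myl7, Myl4, Myh6, Tnni3 and Myh7, and the irradiated primary is the highest for Sln, Myl3, Smpx, Ankrd1 and Nppb.

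Of the atrial genes, Myl7, the atrial regulatory light chain, gave the widest contrast. It stood at -4.75, -3.22 and 3.37 in nodules 1, 2 and 3, at -6.32 in the irradiated primary and at -6.29 in the non-irradiated primary. Nodule 3 was thus far above every other array. Its level was 164-fold that of the mean of nodules 1 and 2. Neither primary was well above background, so the folds against them are lower bounds, with the dim array set to the lowest level that passed background on it: nodule 3 was at least 679-fold higher than the irradiated and at least 723-fold higher than the non-irradiated primary. Myl7 was also the 1 gene of the 10 for which all 3 nodules lay above both primaries.

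Myl4, the atrial essential light chain, showed the same rank of nodule 3 with smaller steps and with signal in the primaries too. It stood at -2.44, -2.43 and 1.92 in nodules 1, 2 and 3, at -0.12 in the irradiated and at -1.04 in the non-irradiated primary. Nodules 1 and 2 were the lowest arrays, and nodule 3 was 20.5-fold above their mean. It exceeded the irradiated primary 4.10-fold and the non-irradiated primary 7.79-fold. The probe of Myl4 had 1 spot per array, so no spread between spots is known. In rodents Myl4 is made by embryonic skeletal muscle as well as by the atrium.

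Sln encodes sarcolipin, a small membrane protein that inhibits the calcium pump of the sarcoplasmic reticulum in atrial and in some skeletal muscle. Its levels were -5.54, -6.41 and -1.05 in nodules 1, 2 and 3, 0.26 in the irradiated and -2.91 in the non-irradiated primary. Nodule 3 lay above both other nodules but under the irradiated primary. It was 30.5-fold above the mean of nodules 1 and 2, of which nodule 2 was not well above background, and 7.31-fold above it with normexp background correction. The irradiated primary was 2.47-fold above nodule 3 and 8.99-fold above the non-irradiated primary. Sln therefore ranked the arrays differently from Myl7 although both are atrial genes.

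The genes used by both heart chambers were Myh6, the alpha myosin heavy chain, and Tnni3, cardiac troponin I, the inhibitory subunit of the thin filament in adult heart. Myh6 stood at -2.84, -3.03 and 3.87 in nodules 1, 2 and 3, at -0.34 in the irradiated and at -5.01 in the non-irradiated primary. Nodule 3 was 112-fold above the mean of the other nodules, 18.5-fold above the irradiated and 471-fold above the non-irradiated primary. The primaries also differed in Myh6, by 25.4-fold with the irradiated primary higher. Tnni3 had no such step between the primaries. Its levels were -4.37, -4.49 and 0.81 in nodules 1, 2 and 3, -4.08 in the irradiated and -4.01 in the non-irradiated primary. The 4 arrays other than nodule 3 lay within 0.48 of each other, while nodule 3 was 37.8-fold above the mean of nodules 1 and 2, 29.6-fold above the irradiated and 28.2-fold above the non-irradiated primary. Tnni3 was read by 9 or 10 spots per array, whose SDs were 0.059 to 0.17.

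Of the genes shared by the ventricle and slow skeletal fibres, Myh7 and Myl3 went different ways. Myh7, the beta myosin heavy chain, stood at -3.21, -3.90 and 2.60 in nodules 1, 2 and 3, at -0.70 in the irradiated and at -5.69 in the non-irradiated primary, where it was not well above background. Nodule 3 was 71.3-fold above the mean of nodules 1 and 2 and 9.85-fold above the irradiated primary. Its profile over the arrays had the order of Myh6, the gene next to it in the rat genome with 0 protein-coding genes between them. The sequences of the heavy chains are very alike, so the Myh6 and Myh7 probes may share target RNA, which was not tested. Myl3, the ventricular and slow-fibre essential light chain, was close to background in all nodules, at -7.81, -6.66 and -6.24, and stood at -2.09 in the irradiated and -3.98 in the non-irradiated primary. Here nodule 3 lay 17.8-fold below the irradiated and 4.81-fold below the non-irradiated primary, and at least 1.25-fold above nodules 1 and 2, which were not well above background.

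Smpx, Ankrd1 and Nppb answer to load or stress in striated muscle. Smpx, a small muscle protein of the costamere encoded on the X chromosome, was not well above background in nodules 1 and 2 (-8.53 and -8.70) and stood at -1.94 in nodule 3, -0.60 in the irradiated and -2.53 in the non-irradiated primary. Nodule 3 was at least 24.8-fold above the other nodules on this scale, though only 5.80-fold with normexp background correction, 1.51-fold above the non-irradiated primary and 2.53-fold below the irradiated one. Ankrd1, the cardiac ankyrin repeat protein of the sarcomere and nucleus, gave -4.03, -4.85 and -1.74 in nodules 1, 2 and 3, -0.64 in the irradiated and -2.96 in the non-irradiated primary. It kept the array order of Smpx and Sln with smaller steps, nodule 3 being 6.51-fold above the mean of nodules 1 and 2 and 2.14-fold below the irradiated primary. Nppb, the precursor of brain natriuretic peptide released by stretched heart muscle, did not set nodule 3 apart. It stood at 0.66, 1.80 and 1.87 in nodules 1, 2 and 3, at 2.07 in the irradiated and 0.71 in the non-irradiated primary. The gaps among nodule 2, nodule 3 and the irradiated primary were smaller than the difference of 1.13 between nodules 1 and 2, while SDs between its 10 spots were 0.041 to 0.14.

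The primaries differed from each other as well. The irradiated primary was at least 2-fold higher than the non-irradiated primary in 7 of the 10 genes, and over all features that were well above background in at least 1 primary 9.28% were. In the other direction the count was 0 of the 10 genes and 7.12% of all features. The 7 were Myh7, Myh6, Sln, Ankrd1, Smpx, Myl3 and Nppb. The folds were at least 31.7 for Myh7, and 25.4, 8.99, 4.99, 3.82, 3.70 and 2.57 for the others in that order. Myl4 differed 1.90-fold, Tnni3 differed by -0.07 on the log2 scale and Myl7 was dim in both. With 1 array on each side these differences have no replicate check. At a threshold of 2 log2 units the count was 4.

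Nppb has a close relative beside it, Nppa, the precursor of atrial natriuretic peptide, made mainly by atrial muscle and stored in its granules. With 0 protein-coding genes between them in the rat genome, the pair differed on these arrays. Nppa was well above background in nodule 3 alone. It stood at -7.65, -7.45 and 2.63 in nodules 1, 2 and 3, at -6.83 in the irradiated and -7.60 in the non-irradiated primary. Nodule 3 was at least 587-fold above nodules 1 and 2 and at least 404-fold above the irradiated primary. Because it was bright in 1 nodule only, Nppa did not enter the limma test, which took a feature only where every array of some group passed background.

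Promoter sequence is shown for this pair, for Tnni3 (high in nodule 3 only) and for Smpx (highest in the irradiated primary), since these genes ranked the arrays differently. The 250 bases before the annotated start of transcription were taken from RefSeq (rat, GRCr8), with capitals marking the GATA core (GATAA, on either strand), the letters bound by the cardiac GATA factors. They lie at chr5:163711934-163712183, plus strand, for Nppa, at chr5:163699758-163700007, plus strand, for Nppb, at chr1:78342321-78342570, plus strand, for Tnni3 and at chrX:41107138-41107387, minus strand, for Smpx.
Nppa: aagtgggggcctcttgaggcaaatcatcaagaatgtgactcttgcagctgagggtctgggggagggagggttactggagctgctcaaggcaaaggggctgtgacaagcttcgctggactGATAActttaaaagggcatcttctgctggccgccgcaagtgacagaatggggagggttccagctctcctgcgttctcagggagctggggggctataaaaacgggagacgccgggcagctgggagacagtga
Nppb: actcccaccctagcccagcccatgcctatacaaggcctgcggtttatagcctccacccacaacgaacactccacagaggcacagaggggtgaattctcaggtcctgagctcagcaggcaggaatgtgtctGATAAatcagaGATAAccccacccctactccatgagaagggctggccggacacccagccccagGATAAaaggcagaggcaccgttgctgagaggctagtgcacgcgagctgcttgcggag
Tnni3: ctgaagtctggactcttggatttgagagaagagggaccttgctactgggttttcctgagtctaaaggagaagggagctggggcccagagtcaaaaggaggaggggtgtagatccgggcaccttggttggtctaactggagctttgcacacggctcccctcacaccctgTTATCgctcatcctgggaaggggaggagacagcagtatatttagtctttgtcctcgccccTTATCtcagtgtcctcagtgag
Smpx: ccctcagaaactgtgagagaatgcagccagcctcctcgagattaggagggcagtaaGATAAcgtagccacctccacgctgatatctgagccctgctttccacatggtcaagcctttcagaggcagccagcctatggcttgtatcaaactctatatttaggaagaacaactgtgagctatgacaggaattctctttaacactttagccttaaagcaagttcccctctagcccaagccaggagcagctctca
The GATA core occurred 1 time in the Nppa window, 3 times in Nppb, 2 times in Tnni3 and 1 time in Smpx. Of the 8 member genes with a promoter entry, 3 held it, and 23.5% of 33469 rat promoter windows of the same length did. An M-CAT element (GGAATG, either strand) stood in 3 of the 8 and in 12.1% of all windows, a MEF2 site in 1 of the 8 and 2.96% of all, and a CArG box in 1 of the 8 and 1.50% of all. The MEF2 match was in Smpx and the CArG match in Myl3. A match is a description of these letters only, and for Myh6, Myh7, Myl7 and Myl4 the annotated start lay inside the span of the gene, so their windows may not be the promoters active in muscle. The core was thus present in Nppa, Nppb and Smpx alike, which ranked the arrays differently.

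The rest of the cardiac programme was described with lists of 89 other genes, of which 79 were on the array and 60 were well above background in nodule 3. Of these 60, 20 stood at least 1 log2 unit above both other nodules (all features, 0.746%), and 7 stood as far above both primaries (all features, 2.39%). The lists were written with results of these arrays known, so the counts are a description and nothing is read from the comparison with these shares. The 7 were Nppa, Mybphl, Mybpc3, Corin, Gata4, Fabp3 and Casq2. Some of these counts rest on arrays where the gene was not well above background. With such values raised to the lowest level that passed background on their array, a setting added after seeing the data, 19 of the 60 remained above both other nodules (all features, 0.585%), Gata4 being the one lost, and 5 above both primaries (all features, 1.91%), without Corin and Gata4. Over the 63 list genes bright on any array the median difference of nodule 3 from the mean of nodules 1 and 2 was 0.46, and over all 20127 such features it was -0.059. By list, nodule 3 stood above both other nodules in 9 of 15 sarcomere and Z disc genes, 6 of 14 genes of muscle metabolism, 2 of 5 other atrial genes, 0 of 1 other ventricular gene, 2 of 6 natriuretic peptide and muscle ankyrin repeat genes, 2 of 11 calcium handling genes, 1 of 6 transcription factors and 0 of 7 genes of ion channels and gap junctions.

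Of the 15 sarcomere and Z disc genes bright in nodule 3, 2 stood at least 1 log2 unit above both primaries, Mybpc3 and Mybphl. Mybpc3, cardiac myosin-binding protein C, which is confined to the heart in adults, stood at -3.86 in nodule 3 and was not well above background on the other 4 arrays (-8.60 to -8.03), a difference of at least 6.56-fold from nodules 1 and 2. Mybphl, a related protein of atrial muscle, stood at -2.21 in nodule 3 and at -6.17 to -5.91 elsewhere, where only nodule 2 passed background. Outside the sarcomere, Corin, the protease that activates atrial natriuretic peptide on heart muscle cells, was well above background in nodule 3 alone, at -5.41, at least 2.24-fold above nodules 1 and 2 and at least 1.54-fold above the irradiated primary. The cardiac transcription factor Gata4 also passed background in nodule 3 alone, at -5.64. The broadly used cardiac troponin T gene Tnnt2 was bright everywhere, at 2.07, 0.84 and 3.38 in nodules 1, 2 and 3, 1.61 in the irradiated and 2.39 in the non-irradiated primary, so nodule 3 was the highest array by less than the gap between nodules 1 and 2. Cardiac actin Actc1 had a narrow range of -0.63 to 0.60.

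A second set of genes, used by heart and skeletal muscle alike, was higher in nodule 3 than in the other nodules and mostly higher still in the irradiated primary. Trdn, triadin of the calcium release unit, stood at -7.54, -8.66 and -1.88 in nodules 1, 2 and 3, at 0.89 in the irradiated and -0.94 in the non-irradiated primary. Myom2, an M-band protein, stood at -8.42, -7.43 and -2.78 in the nodules and at -1.16 and -2.99 in the irradiated and non-irradiated primary. In both genes, as in Sln, Smpx and Ankrd1, nodule 3 lay above the other nodules and below the irradiated primary. Hrc, a calcium-binding protein of the sarcoplasmic reticulum, lay 4.10 above the mean of nodules 1 and 2 and 1.61 below the irradiated primary on the log2 scale. Tcap, the telethonin of the Z disc, lay 3.38 above and 1.19 below in the same comparisons. The mitochondrial creatine kinase Ckmt2 was nearly level with the irradiated primary, at 0.00 in nodule 3 and -0.23 there, and was at least 94.2-fold above nodules 1 and 2. Fabp3, the heart fatty acid binding protein, went with the first set, since nodule 3 (-1.78) was above the irradiated primary (-3.34), the non-irradiated primary (-4.40) and nodules 1 and 2 (-4.43 and -5.39).

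Most of the other defining heart genes looked at did not separate nodule 3. Myl2, the ventricular regulatory light chain, was not well above background in any nodule (-8.49 to -7.59) and stood at -2.70 in the irradiated primary. Irx4, a transcription factor of the ventricle, was not well above background on any array, and neither were Bmp10 and Kcna5, which are known from the atrium. Ryr2, the cardiac calcium release channel, ranged from -1.13 to -0.93 over all arrays, and Nkx2-5, a transcription factor of heart muscle, from -5.72 to -5.32. Pln, phospholamban, ranged from -5.46 to -4.98. Among atrial genes Kcnj3, a potassium channel subunit, was well above background in nodule 3 alone (-5.69), and the gap junction gene Gja5 was bright on all arrays with nodule 1 the lowest (-4.16) and the others at -2.42 to -1.69.

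**Figure D2:**
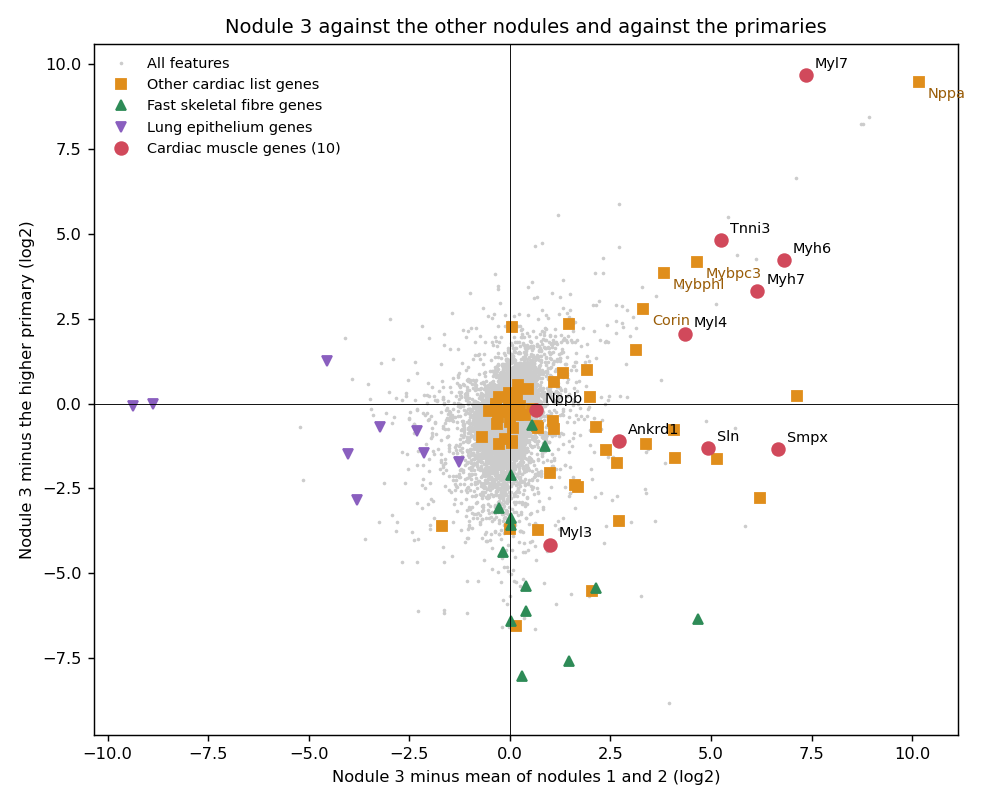
Difference of nodule 3 from the mean of nodules 1 and 2 (x axis, log2) against its difference from the higher of the primaries (y axis, log2) for features well above background in nodule 3; each point is a feature, with the 10 cardiac muscle genes as red circles, other cardiac list genes as orange squares, fast skeletal fibre genes as green upward triangles and lung epithelium genes as purple downward triangles. Myl7, Tnni3, Myh6, Myh7 and Myl4 lie at the upper right together with Nppa, while Sln, Smpx and Ankrd1 lie to the right but under 0, and Myl3 lies at -4.15 against the higher primary.

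As the genes whose pattern was most like the leading members, the 10 named genes with the widest gap between nodule 3 and the highest of the other 4 arrays were taken, ranked over 10947 named genes bright in nodule 3. They were Nppa, C19h16orf46, Tlcd5, Mybpc3, Mybphl, Corin, Spetex2g, Gpc2, Adrb3 and Fgf12, and 4 of them belonged to the cardiac lists. Because 8 of the 10 were well above background in nodule 3 only, most of their gaps are known only as lower bounds. With dim values raised to the lowest level that passed background, nodule 3 was at least 404-fold above every other array for Nppa, 14.5-fold for Tlcd5, 4.51-fold for Mybpc3 and 3.29-fold for Adrb3. The bounds were small for Corin (1.54-fold), Fgf12 (1.47-fold), Spetex2g (1.38-fold) and Gpc2 (1.31-fold), so these 4 are close to background even in nodule 3. C19h16orf46 was bright on all arrays, at -4.49 to -4.17 on 4 of them and at 1.17 in nodule 3. Ranked by these bounds, Myl7 was at rank 2, Tnni3 at 4, Myh6 at 5, Myh7 at 8 and Myl4 at 10 among the named genes, with Nppa at 1. Of all features, with dim values as measured, 56 (0.301%) stood at least 1 log2 unit above the 4 other arrays, of which 32 had a gene name and 24 had none.

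**Figure D3:**
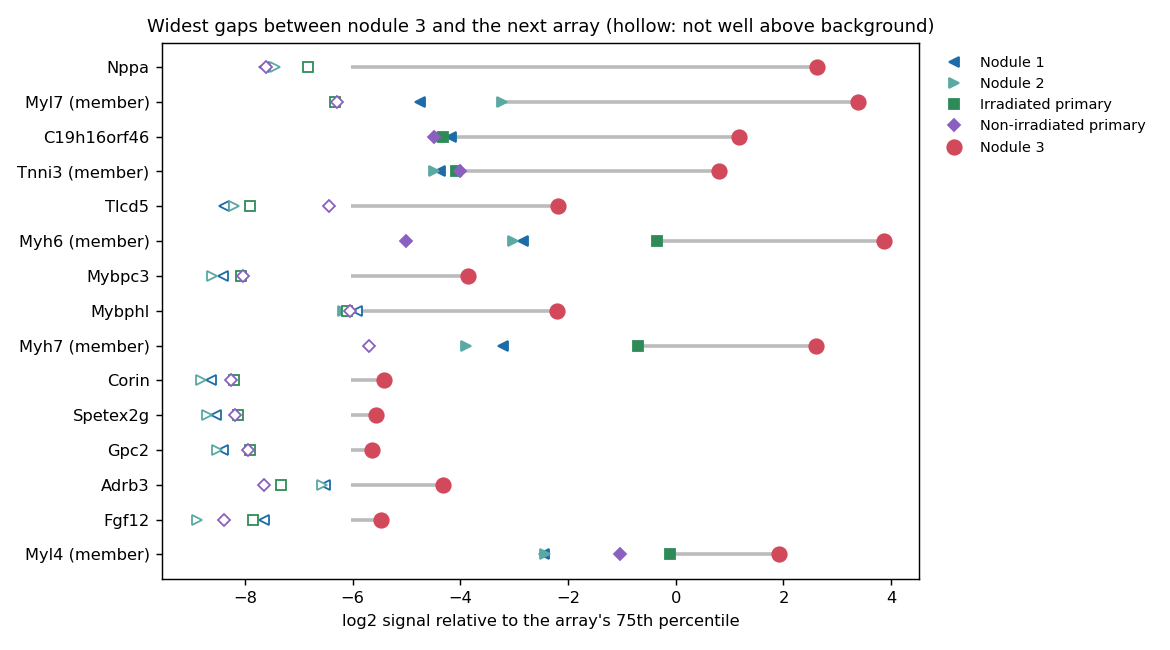
Scaled log2 signal (x axis) on the 5 arrays for the 10 named genes with the widest gap between nodule 3 and the next array and for the 5 members that were highest in nodule 3; hollow points were not well above background, and the grey bar runs from nodule 3 to the next array, with dim arrays set to the lowest level that passed background. Nppa has the longest bar, at least 404-fold, and for 8 genes every array but nodule 3 is hollow.

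Nodules as a group were compared with each primary by limma over 18914 features (Benjamini-Hochberg adjusted p under 0.05, residual spread from the 3 nodules alone, 2 degrees of freedom). The 10 members were among the features fitted, but their test results are not given, since their choice rests on the same arrays. Of the 57 other cardiac list genes that could be tested, 6 fell and 1 rose against the irradiated primary, and 50 did not pass, where 2.81% of all features fell and 0.909% rose. The filter let a gene in through a lone primary where it was high, so the direction of this tally is partly set by it. Of the 47 list genes well above background in all 3 nodules, 4 fell and 1 rose. Ankrd2, a stretch-responsive relative of Ankrd1, had a log2 change of -6.67 with an SE of 0.19 and fell in the test (limma adjusted p = 0.00394), and its relative Ankrd23 fell by 3.70 (limma adjusted p = 0.00799). Trim63, a muscle ubiquitin ligase, fell by 4.20 (limma adjusted p = 0.0160), and the small heat shock protein gene Cryab fell by 0.76 (limma adjusted p = 0.0460). Myl2 (limma adjusted p = 0.0160) and the calcium channel gene Cacna1g (limma adjusted p = 0.0250) also fell. Neither was well above background in any nodule, and the irradiated primary was at least 15.3-fold higher in Myl2 and at least 8.82-fold higher in Cacna1g. Casq2, the cardiac and slow-fibre calsequestrin, rose by 2.21 (limma adjusted p = 0.0258). Each of these 7 lay on the same side of the irradiated primary in 3 of 3 nodules. Without nodule 2, 1 of the 57 genes was called, with 14 calls over all features. Without nodule 1, 17 were called, and without nodule 3, 15 were called, all of them lower in the nodules.

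Against the non-irradiated primary 6 of the 57 genes rose, 6 fell and 45 did not pass, where 9.73% of all features rose and 8.86% fell. Both counts were close to these shares, so they do not set the cardiac lists apart. Of the 47 well above background in all 3 nodules, 6 rose and 5 fell. Casq2 rose (limma adjusted p = 0.00872), by at least 13.9-fold since the non-irradiated primary was not well above background. Hey2, a transcription factor of the ventricle, rose by 1.95 (limma adjusted p = 0.0324), and the gap junction gene Gja1, Pdk4, Eno3 and Cryab rose too. For Pdk4 the non-irradiated primary was not well above background, and the rise is known only as at least 1.65-fold. Ankrd2 fell by 5.20 on the log2 scale (limma adjusted p = 0.00740) and Xirp2, a protein of Z discs and cell junctions, fell by 5.84 (limma adjusted p = 0.0396). Xirp2 was well above background in only some of the nodules, so the size of its fall rests partly on dim values. Trim63, Ankrd23, S100a1 and Cpt1b were the others that fell. Without nodule 2 the count was 0, with 17 at an unadjusted p under 0.05 and a smallest limma adjusted p of 0.0538 over all features. Without nodule 1 it was 20 and without nodule 3 it was 10. Both comparisons use the same nodules, so their calls are not independent. Genes bright in nodule 3 alone, Nppa, Mybpc3, Corin, Gata4 and Kcnj3, could not pass the filter of these tests.

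Markers of other tissues moved with nodule 3, and their part in the results was not tested. Of 16 lung epithelium genes on the array, 14 were well above background in nodules 1 and 2, and 13 of these 14 were at least 1 log2 unit lower in nodule 3 than in both, against 1.62% of all features. The exception was Sftpc. The mean log2 level of the 14 genes was 0.63 in nodule 1, -0.999 in nodule 2, -5.53 in nodule 3, -5.47 in the irradiated and -5.09 in the non-irradiated primary. The surfactant genes Sftpa1 and Sftpb were not well above background in nodule 3 (-8.46 and -8.62) and stood at 4.33 and 1.22 in nodule 1. Scgb1a1, the secretoglobin of airway club cells, stood at 4.11 and 3.09 in nodules 1 and 2 and at -5.27 in nodule 3. In limma, 0 of the 9 lung genes that could be tested were called against either primary. Their median log2 change was 2.67 against the irradiated and 1.44 against the non-irradiated primary. Over all features 0.909% rose and 2.81% fell against the irradiated primary, and 9.73% and 8.86% against the non-irradiated one. The test took its residual spread from the nodules, which differed widely in these genes, so nothing is read from this 0. Nodule 3 thus had the highest signal of the 5 arrays for Myl7, Myl4 and Nppa, though not for Sln, and a lung epithelium signal near that of the primaries. Among the red blood cell genes, nodule 3 lay at least 1 log2 unit below both other nodules in 2 of 6 (all features, 1.62%). It lay as far above both primaries in 4 of 6 (all features, 2.39%). Of 7 smooth muscle and pericyte, 3 endothelial and 4 mesothelial genes bright in nodule 3, 0 stood at least 1 log2 unit above both other nodules. Over all features 0.746% did, so a count of 0 in so few genes cannot be told from that share. The median difference of nodule 3 from the mean of nodules 1 and 2 was -0.84, -1.14 and 0.11 in these lists, over genes bright on any array. Over all such features it was -0.059.

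Genes of the fast skeletal fibre list were mostly lower in the nodules than in the primaries. Of the 11 that were well above background in all 3 nodules, 10 fell against the irradiated and 9 against the non-irradiated primary (limma; all features 2.81% and 8.86%) and 0 rose in either. Another 7 were tested with at least 1 nodule below background, 4 of them with none above it, and these entered the test through the primaries where they were high. The mean level of the 18 genes was -4.58, -4.53 and -3.99 in nodules 1, 2 and 3, 1.16 in the irradiated and -0.90 in the non-irradiated primary. In 3 of the 14 genes bright in nodule 3 it stood at least 1 log2 unit above both other nodules (all features, 0.746%). These 3 were Acta1, Myl1 and Ckm, of which Acta1 and Ckm are not confined to fast fibres. Above both primaries the count was 0 (all features, 2.39%). The light chain Myl1 stood at -3.68 in nodule 3, under 2.65 in the irradiated and -0.46 in the non-irradiated primary. In the slow fibre list, 3 of 8 tested genes fell and 1, Casq2, rose against the irradiated primary (limma, all features 2.81% and 0.909%). Of the 6 well above background in all 3 nodules, 1 fell and 1 rose. The troponin genes Tnnt1 and Tnni1 fell by 5.11 (limma adjusted p = 0.00951) and 3.99 (limma adjusted p = 0.0128). Nodule 3 did not stand apart for either (-3.42 and -6.00, beside -3.59 to -2.83 and -6.47 to -6.16 in the other nodules). Of the 7 list genes bright in nodule 3, 1, Tnnc1, stood at least 1 log2 unit above both other nodules (all features, 0.746%). As far above both primaries stood 1, Casq2 (all features, 2.39%). The irradiated primary had higher Sln, Smpx, Ankrd1, Myl3, Myh7 and Myh6 than the non-irradiated one, and a higher fast fibre mean (1.16 against -0.90). Whether these signals are linked was not tested. In the non-irradiated primary Myh7 was not well above background and Myh6 was at its lowest. The slow fibre list separated the arrays less, with means of -2.20, -2.18 and -1.95 in nodules 1, 2 and 3, -0.53 in the irradiated and -1.64 in the non-irradiated primary. Of the 26 genes of all marker lists that limma called against the irradiated primary, 19 lost the call without nodule 2, and of the 38 called against the non-irradiated primary all 38 did. Without nodule 3 the calls lost were 6 and 22.

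**Figure D4:**
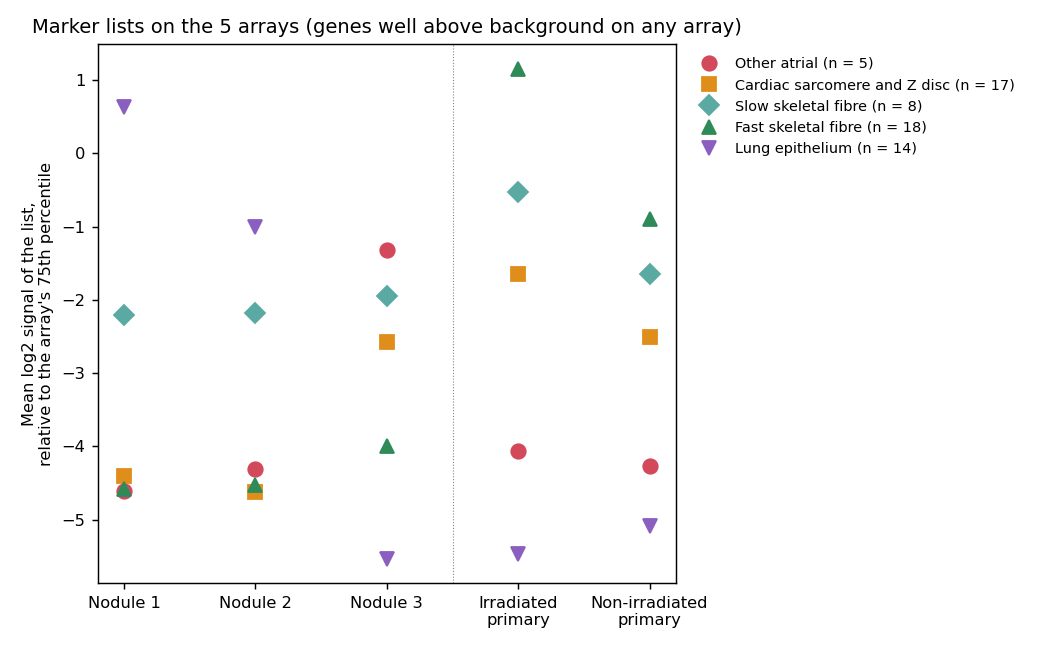
Mean scaled log2 signal (y axis) of 5 marker lists on the 5 arrays (x axis), over the list genes that were well above background on any array (n in the legend); each point is 1 array, and the lists do not contain the 10 cardiac muscle genes. The mean of the other atrial genes is highest in nodule 3, that of the fast skeletal fibre list in the irradiated primary (1.16), and that of the lung epithelium genes in nodule 1 (0.63). Only 2 of the 5 other atrial genes stood at least 1 log2 unit above both other nodules. Nppa was one of them, with a difference of 10.2 from the mean of nodules 1 and 2, dim values as measured.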

How the data were processed

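Total RNA of the 5 tumours was labelled with Cy3 and hybridised to 1-colour Agilent rat arrays, 1 array per sample. The deposited intensity values were background-subtracted and detrended by Agilent Feature Extraction 11.0, per the file headers, and the deposited spot flags (well above background, outlier, saturated) are other values of 0 or 1. The authors' deposited log2 table, whose scaling is not given in the sources used here, held 4 of the 10 genes and served as an alternative. Outlier spots were left out, log2 signals were averaged over the spots of a probe, and the 75th percentile of each array was subtracted. Of 30363 probes 18346 were named through RefSeq accessions. A probe counted as well above background when most of its spots did, and each gene was read from its brightest probe. Probe positions were not used, since the gene table is of a later rat assembly. Limma 3.58.1 in R 4.3.3 fitted 3 group means (eBayes with an intensity trend) and assumed that a lone primary varies like the nodules. It was checked on simulated data that gave the primaries the spread of the nodules, so that check cannot test this assumption. Since separate animals are not stated, p-values reflect the spread among these samples, which may be technical. The members and lists were chosen with earlier results of these data known. Named genes were the members, the 5 list genes with the largest difference of nodule 3 from nodules 1 and 2, up to 3 called list genes, listed defining markers and the 10 genes of widest gap; genes outside this rule that complete a short count were named after their values were seen. Alternatives covered scaling, background correction, outlier spots, probe choice, filters, the variance model and each nodule left out.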

Additional observations from a re-analysis of the deposited data

How the results depend on the processing

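Scaling to the array median, quantile normalization, normexp background correction and outlier spots kept left the counts of members unchanged. They stayed at 8 above both nodules, 5 above both primaries and 7 higher in the irradiated than the non-irradiated primary. Raising dim values to the background bound, a setting added after seeing the data, also left these counts unchanged. The mean of all probes could not change them, since each member has 1 probe. On the deposited log2 table, which holds 4 members, the counts were 3, 2 and 2 of 4. At 2 log2 units they were 8, 5 and 4. Without the irradiated primary, a setting added after seeing the data, 8 members lay at least 1 log2 unit above the remaining primary. The features called against the irradiated primary (704) were 438 with median scaling, 399 without an intensity trend and 14 to 3231 when 1 nodule was left out; the cardiac list genes called (7) were 11 with normexp, 4 on probes bright on all 5 arrays and 1 to 17 when 1 nodule was left out. Against the non-irradiated primary, leaving out 1 nodule gave 0 to 6474 features (3516 with all) and 0 to 20 cardiac list genes (12 with all). No recomputed difference of a member between nodule 3 and nodules 1 and 2 changed sign, but with normexp 7 of 10 moved by more than 1.5-fold, up to 17.6 times for Smpx (2.54 against 6.67 log2), and that of Myl3 was 0.030 log2. The causes of these changes were not tested. Normexp was planned on mean spot signals and run on median ones, the column found in the files. No paired analysis was possible because the primaries are 1 sample each and carry no replicate number. Values near the lowest well-above-background levels (-6.77 to -6.03) have little precision.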
